A study of Mus musculus with 23 samples.

Results

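The genes described here are 32 genes of glycolysis and of the response to low oxygen, in β-TC6 cells with and without a working circadian clock. They were chosen by symbol from what their products do, with earlier results of these data known. All 32 were found among the 20599 genes of the deposited expression table. Glycolysis splits glucose into pyruvate in the cytosol, and in β cells the rate of glucose use sets the release of insulin, so pyruvate is normally passed to mitochondria and little is turned into lactate. Hypoxia-inducible factor (HIF) is a pair of bHLH-PAS proteins, the same protein family as BMAL1 and CLOCK. Its α subunit is hydroxylated by the EGLN enzymes and destroyed while oxygen is plentiful, and when it is stable it raises transcription of many glycolytic enzymes, of pyruvate dehydrogenase kinases and of genes such as Vegfa and Bnip3.

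β-TC6 cells were grown from a mouse insulinoma, an insulin-secreting tumor. RNA was measured in 3 Bmal1-/- libraries, from cells in which exon 8 of Bmal1 (Arntl) was deleted by CRISPR-Cas9, in 3 Clock-/- libraries, from cells lacking exons 6 to 7 of Clock, and in 3 WT libraries from the unedited line. All cells were between passages 5 and 15, were grown in DMEM with 15% fetal bovine serum, and received no treatment. Each knockout is 1 clone picked after editing, so the effect of a deletion and a trait of its clone cannot be told apart. The 3 libraries of a genotype came from separate wells of 1 line, so the p-values measure the spread between such wells. THRAP3 ChIP-seq peak lists were deposited for 2 Bmal1-/- and 2 WT immunoprecipitations, THRAP3 being a splicing and transcription cofactor.

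The libraries held an estimated 20786000 to 30860000 assigned reads in Bmal1-/- cells, 15037000 to 20279000 in Clock-/- cells and 17783000 to 22120000 in WT cells. Over log2(TPM + 1), pairs of libraries correlated at 0.976 to 0.993 within a genotype and at 0.918 to 0.952 across genotypes. TPM is a level per length of transcript, so levels of different genes can be compared. The deletions remove exons only, and gene-level TPM is no check of them: Arntl was at 3.32 to 3.52 TPM in Bmal1-/- cells, against 3.52 to 4.22 TPM in WT cells. Of 10 β-cell markers, Bmal1-/- cells had 1 above and 4 below WT at an adjusted p below 0.01 (limma), against 18.4% and 21% of all tested genes. Clock-/- cells had 3 above and 6 below, against 9.5% and 14.4%, so the list did not move one way. Ins2 was at 18748 to 21755 TPM in Bmal1-/- cells, 12660 to 16407 TPM in Clock-/- cells and 27105 to 29444 TPM in WT cells, and Ins1 at 2197 to 2567, 57.7 to 64.0 and 2277 to 2359 TPM in the same order. The β-cell factor Nkx6-1 was higher in both knockouts, at 642 to 656, 468 to 525 and 249.7 to 273 TPM. Of the hormone genes of other islet cells, Gcg and Sst were low in Bmal1-/- and high in Clock-/- cells. Gcg was at 49.4 to 53.9, 1155 to 1308 and 462 to 493 TPM. Sst was at 16.8 to 22.8, 287 to 373 and 82.9 to 92.9 TPM. The hormone gene Ppy was at most 1.46 TPM in any library, and its groups overlapped. Among α-cell markers, Ttr moved like Gcg, with means of 1771, 3514.5 and 2330 TPM in Bmal1-/-, Clock-/- and WT cells. Irx2 did not, with means of 33.5, 14.9 and 11.5 TPM in the same order. The 15 markers of non-endocrine cells summed to 6.75 to 9.44, 30.1 to 32.5 and 36.6 to 40.3 TPM. Within this sum, acinar markers had means of 2.40, 2.68 and 8.56 TPM and duct markers of 3.92, 5.50 and 19.8 TPM. Stromal and endothelial markers had mean sums of at most 0.43 and 0.35 TPM in any genotype. The macrophage marker Cd68 was at 1.18 to 1.31, 20.9 to 22.2 and 8.71 to 9.64 TPM. The other immune markers Adgre1, Lyz2 and Ptprc were at most 0.311, 0.319 and 0.125 TPM in any library, so Cd68 was not joined by them. The part of these markers in the results was not tested, and in bulk RNA a change in the share of a cell type and a change of RNA per cell cannot be told apart.

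The sequences that follow bear on a question the design raises, namely which of these genes hold a clock or HIF motif at the gene start. BMAL1 and CLOCK bind the E-box CACGTG as a pair, and HIF binds ACGTG or GCGTG; all 3 were searched on both strands. Every CACGTG holds ACGTG on both strands, so the searches overlap. Windows of 300 bases, from 250 before to 50 after the start, were found for 31 of the 32 genes in the RefSeq table (GRCm38.p6). Where a gene had several windows, the first listed was used. CACGTG stood in 5 of the 31 windows (16.1%), against 7.24% of all 27025 promoters and 10.3% of the 10296 promoters of tested genes. ACGTG stood in 18 windows (58.1%, against 25.8% of tested promoters) and GCGTG in 17 (54.8%, against 52.4%). The promoters were not matched for base composition, and a match is a description of the letters, not a bound site. The 5 windows with an E-box are shown because they hold the sequence the deleted pair binds. That of Ankrd37, a HIF target, is an example of a window with both HIF motifs, picked with the rise of its RNA in Bmal1-/- cells known. Other genes also hold both motifs in the first window. Of these, Gapdh, Aldoc and Pgam1 rose in Bmal1-/- cells, Pfkfb2, Pdk3 and P4ha1 fell, and Slc2a1, Bnip3 and Egln1 had no call. The RefSeq start of the Ankrd37 window lies 5857 bases from the GENCODE start. Each is written 5′ to 3′ on the strand of the gene, with matches to the 3 motifs on either strand in capitals.
Pfkfb2 (chr1:130715772-130716071, minus strand): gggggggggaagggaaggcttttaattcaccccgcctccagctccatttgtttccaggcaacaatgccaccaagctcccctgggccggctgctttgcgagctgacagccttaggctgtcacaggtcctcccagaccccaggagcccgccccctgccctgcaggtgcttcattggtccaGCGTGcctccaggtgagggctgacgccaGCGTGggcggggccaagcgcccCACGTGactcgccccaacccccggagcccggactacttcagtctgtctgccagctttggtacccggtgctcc
Pdk2 (chr11:95041322-95041621, minus strand): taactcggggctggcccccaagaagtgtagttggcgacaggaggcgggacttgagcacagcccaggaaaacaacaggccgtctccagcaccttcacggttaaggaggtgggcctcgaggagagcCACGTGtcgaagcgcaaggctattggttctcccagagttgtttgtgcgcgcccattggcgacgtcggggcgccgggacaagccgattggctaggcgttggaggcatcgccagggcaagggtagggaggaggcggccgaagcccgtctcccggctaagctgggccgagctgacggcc
Pfkm (chr15:98092339-98092638, plus strand): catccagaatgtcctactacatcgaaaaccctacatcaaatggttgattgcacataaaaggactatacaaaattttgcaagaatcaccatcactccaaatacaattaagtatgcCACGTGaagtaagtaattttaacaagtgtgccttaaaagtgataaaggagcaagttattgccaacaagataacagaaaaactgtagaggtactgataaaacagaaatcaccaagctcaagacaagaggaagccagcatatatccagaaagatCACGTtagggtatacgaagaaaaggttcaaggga
Hif1a (chr12:73907617-73907916, plus strand): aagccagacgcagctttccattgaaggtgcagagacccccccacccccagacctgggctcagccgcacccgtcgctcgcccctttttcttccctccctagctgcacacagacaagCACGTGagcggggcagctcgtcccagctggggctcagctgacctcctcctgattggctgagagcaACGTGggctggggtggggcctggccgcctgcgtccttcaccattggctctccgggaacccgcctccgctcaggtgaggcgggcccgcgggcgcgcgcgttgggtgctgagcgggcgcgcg
Bnip3 (chr7:138909457-138909756, minus strand): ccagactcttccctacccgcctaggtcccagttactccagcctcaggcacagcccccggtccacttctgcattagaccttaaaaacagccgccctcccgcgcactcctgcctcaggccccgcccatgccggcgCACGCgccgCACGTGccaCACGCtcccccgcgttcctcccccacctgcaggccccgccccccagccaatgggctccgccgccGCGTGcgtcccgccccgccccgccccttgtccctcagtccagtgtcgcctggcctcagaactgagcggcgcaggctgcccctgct
Ankrd37 (chr8:45999801-46000100, minus strand): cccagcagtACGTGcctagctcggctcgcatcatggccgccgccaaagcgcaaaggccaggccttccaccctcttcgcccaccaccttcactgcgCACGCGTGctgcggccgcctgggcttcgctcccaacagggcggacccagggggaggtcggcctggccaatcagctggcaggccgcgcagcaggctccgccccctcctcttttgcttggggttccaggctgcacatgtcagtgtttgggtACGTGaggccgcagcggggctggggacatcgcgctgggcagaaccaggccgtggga
The E-box began at position -22 from the start in Pfkfb2, -108 in Bnip3, -126 in Pdk2, -135 in Hif1a and -136 in Pfkm. Pfkm has 4 windows in the table, of which the most upstream is shown, Pfkfb2 has 3 and Pdk2 has 2, and in each of these genes only the window shown holds the E-box. A second window of Pfkfb3 holds CACGTG at -53 and is not counted above, because only the first window of each gene was.

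Which of the 32 genes differed between each knockout and WT was tested with limma over all 15031 genes with at least 1 TPM in at least 3 of the 9 libraries. A gene is said to have risen or fallen where its Benjamini-Hochberg adjusted p, over all those genes, was below 0.01. Of the 32 genes, 30 passed this filter. In Bmal1-/- cells, 13 of the 30 rose relative to WT and 5 fell, against 18.4% of all tested genes that rose and 21% that fell. In Clock-/- cells 5 rose and 4 fell, against 9.5% and 14.4% of all tested genes. Bmal1-/- cells were set directly against Clock-/- cells as the test of the difference between the 2 knockouts: 12 genes were higher in Bmal1-/- and 6 lower, against 22.8% and 21.8% of all tested genes. Past a log2 fold change of 1 as well stood Pdk2, Ankrd37 and Ndrg1 among the rises and Pfkfb2 among the falls in Bmal1-/- cells (3 and 1 of 30, against 3.83% and 7.97% of all tested genes), and Ldhb and Ndrg1 in Clock-/- cells (1 and 1, against 2.62% and 4.78%). Between the knockouts 4 genes were higher and 2 lower by that measure, against 6.25% and 8.27%. The libraries of Bmal1-/- and WT cells did not overlap for 16 genes higher and 5 lower in Bmal1-/- (32% and 35.1% of all tested genes). Those of Clock-/- and WT cells did not overlap for 14 higher and 5 lower (20.7% and 25.8%), and those of the 2 knockouts for 13 and 6 (31.9% and 31.1%). The median log2 fold change of the 30 genes was 0.21 in Bmal1-/- and 0.24 in Clock-/- cells, against -0.04 and -0.02 over all tested genes. Both knockouts were set against the same 3 WT libraries. Eno1 and Pkm rose in both lines, Eno2 and Egln3 fell in both, and Pfkm and Ndrg1 rose in Bmal1-/- but fell in Clock-/- cells.

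**Figure D1:**
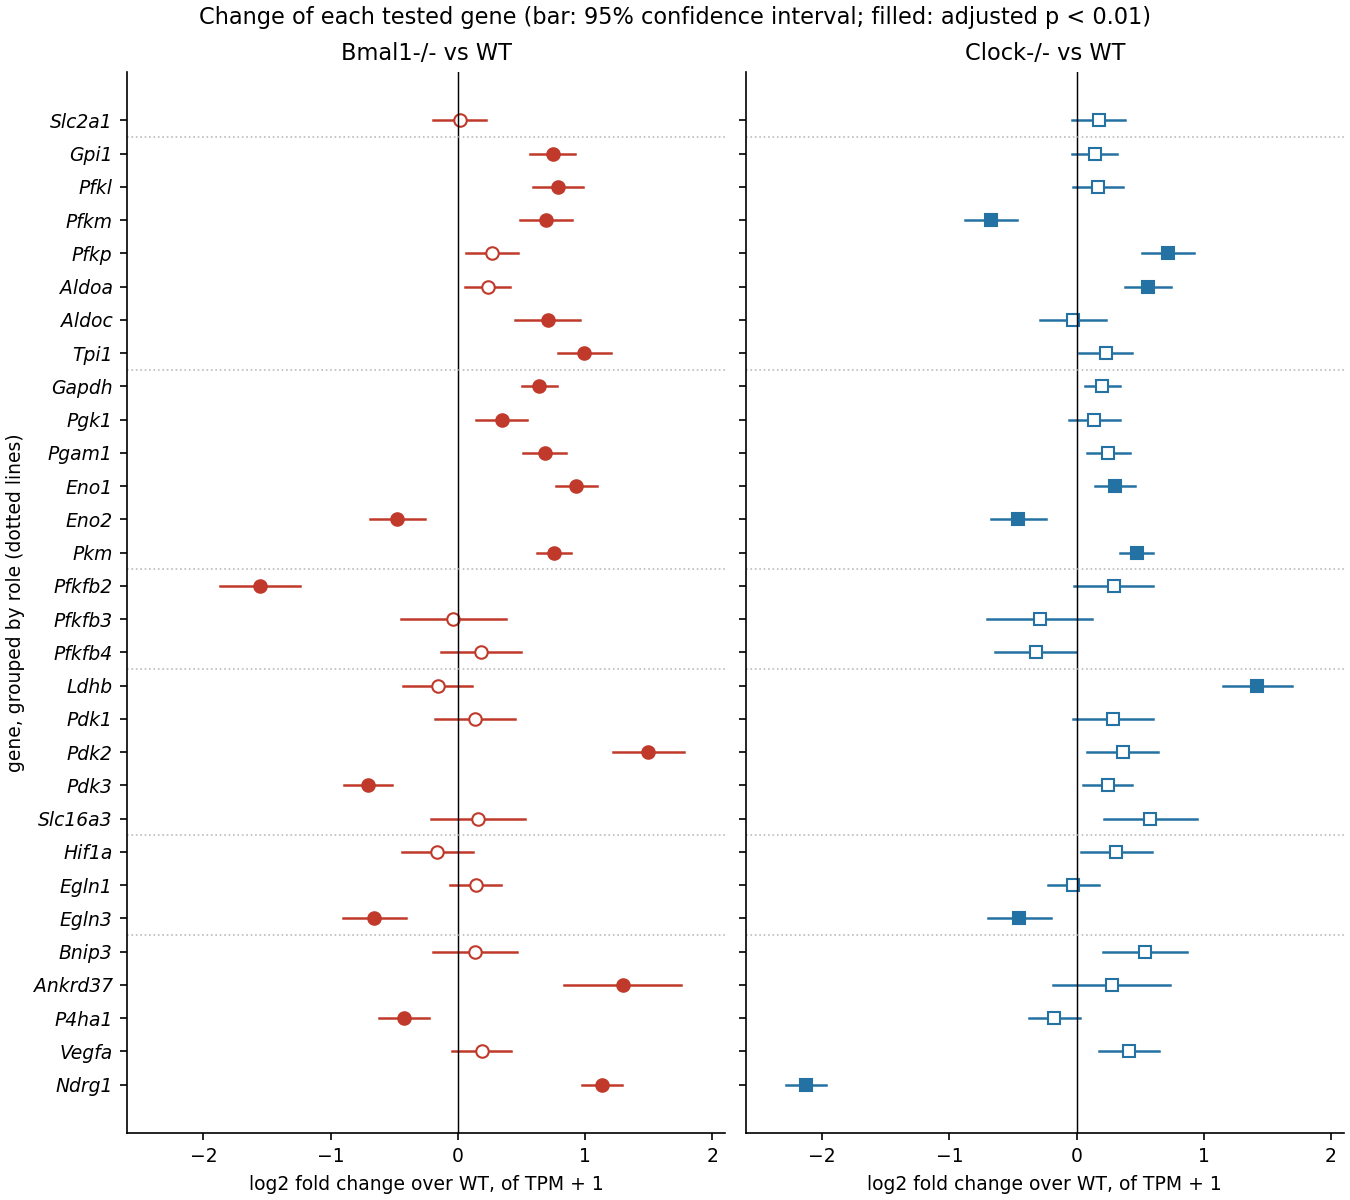
Log2 fold change of TPM + 1 over WT, with its 95% confidence interval, for the 30 tested genes in Bmal1-/- cells (left) and Clock-/- cells (right), 3 libraries per genotype. Filled symbols mark an adjusted p below 0.01, and most filled symbols in the left panel lie to the right of 0 within the enzymes of the pathway, while Ndrg1 lies at 1.13 on the left and at -2.13 on the right.

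The 2 genes outside the test were Hk2 and Adm. Hk2, the hexokinase that insulin-sensitive tissues and tumors use and that healthy β cells keep low, was at 0.047, 0 and 0 TPM in Bmal1-/- cells, at 0.136, 0.203 and 0.237 TPM in Clock-/- cells and at 0.319, 0.400 and 0.306 TPM in WT cells. These values stand for 2, 0 and 0 reads in Bmal1-/-, 5, 6 and 7 in Clock-/- and 12, 14 and 10 in WT libraries. Adm, which encodes the vasodilator peptide adrenomedullin, had 2 to 5 reads in Bmal1-/-, 7 or 8 in Clock-/- and 7 to 12 in WT libraries. Both genes were under the filter on low values. With no filter their log2 fold changes in Bmal1-/- cells were -0.40 for Hk2 (adjusted p = 0.00137, limma) and -0.62 for Adm (adjusted p = 0.00618), which makes 7 genes that fell in place of 5. In Clock-/- cells neither passed (adjusted p = 0.0954 and 0.871).

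Slc2a1, the glucose transporter GLUT1, was not changed past the threshold in either line. It was at 48.5, 55.5 and 51.2 TPM in Bmal1-/- cells, at 55.1, 52.9 and 66.0 TPM in Clock-/- cells and at 49.0, 53.3 and 51.1 TPM in WT cells. The groups overlapped, and the 95% interval of the log2 fold change was -0.19 to 0.22 in Bmal1-/- and -0.03 to 0.38 in Clock-/- cells.

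The glycolytic enzymes were among the most abundant mRNAs of the group, and in Bmal1-/- cells nearly the whole pathway was higher. Of 13 enzyme genes from glucose 6-phosphate to pyruvate, 10 rose in Bmal1-/- cells, 1 fell (Eno2) and 2 did not pass (Pfkp and Aldoa). Of all tested genes, 18.4% rose and 21% fell in these cells. In Clock-/- cells 4 of the 13 rose (Pfkp, Aldoa, Eno1 and Pkm), 2 fell (Pfkm and Eno2) and 7 did not pass. Of all tested genes, 9.5% rose and 14.4% fell in Clock-/- cells. The 13 genes together took 9102, 9440 and 8553 TPM in Bmal1-/-, 6952, 6864 and 7367 TPM in Clock-/- and 5369, 5758 and 5892 TPM in WT libraries. The summed level was thus 1.59 times that of WT in Bmal1-/- and 1.24 times in Clock-/- cells, and no library of 1 genotype reached the range of another.

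**Figure D2:**
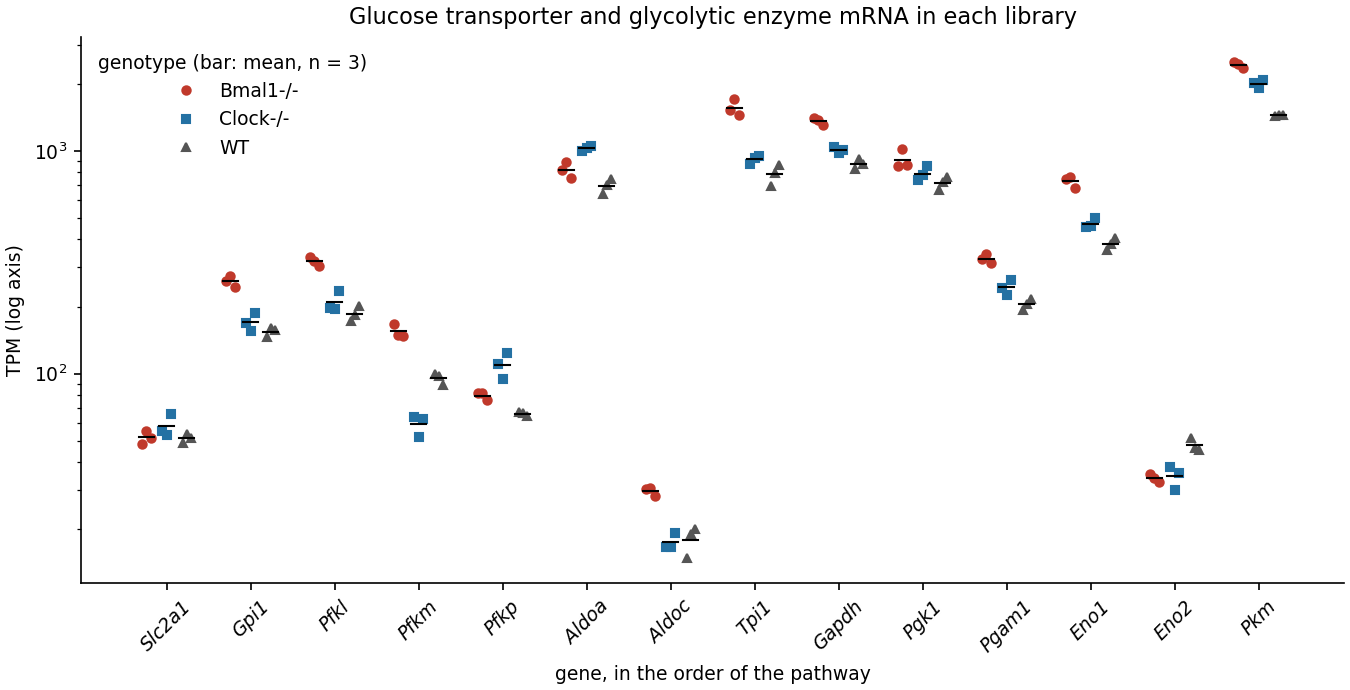
TPM on a log axis of the glucose transporter Slc2a1 and of 13 glycolytic enzymes, ordered along the pathway, in each Bmal1-/- (circles), Clock-/- (squares) and WT (triangles) library; bars are means of 3. Tpi1, Gapdh, Eno1 and Pkm stand highest in Bmal1-/- cells, Aldoa and Pfkp stand highest in Clock-/- cells, and Eno2 is highest in WT cells.

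In the upper part of the pathway the largest change from WT was that of Tpi1, triose phosphate isomerase, which interconverts the products of aldolase. Tpi1 was at 1523, 1707 and 1450 TPM in Bmal1-/-, 871, 929 and 946 TPM in Clock-/- and 692, 798 and 862 TPM in WT libraries. It rose by 0.99 on the log2 scale in Bmal1-/- cells (SE 0.09, adjusted p = 1.63e-05, limma), while the change of 0.23 in Clock-/- cells did not pass (adjusted p = 0.0781). Every Bmal1-/- library was above every WT library, and so was every Clock-/- library by a small margin. Gpi1, glucose-6-phosphate isomerase, was at 244 to 275 TPM in Bmal1-/-, 156 to 187 TPM in Clock-/- and 146 to 160 TPM in WT cells, and rose by 0.75 in Bmal1-/- cells (adjusted p = 4.11e-05), with 0.14 in Clock-/- cells (adjusted p = 0.188). Of the exonic 75-base stretches of Gpi1, 10.8% also occur in another gene, the highest of them at 60.2 TPM, so reads of these may be split.

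Phosphofructokinase catalyses the committed step of glycolysis, and its 3 subunit genes behaved differently. Pfkl, the liver-type subunit, was at 333, 321 and 305 TPM in Bmal1-/-, 196, 195 and 236 TPM in Clock-/- and 172, 184 and 200 TPM in WT libraries, and rose by 0.78 on the log2 scale in Bmal1-/- cells (adjusted p = 5.44e-05). Pfkm, the muscle-type subunit, was at 167, 149 and 148 TPM in Bmal1-/-, 63.7, 52.1 and 62.4 TPM in Clock-/- and 99.7, 97.8 and 88.4 TPM in WT libraries. The 3 genotypes did not overlap for Pfkm: its log2 fold change was 0.69 in Bmal1-/- cells (adjusted p = 0.000157) and -0.68 in Clock-/- cells (adjusted p = 0.00034), and Bmal1-/- stood 1.37 above Clock-/- cells (SE 0.09, adjusted p = 1.84e-06). Over chromosome 15, which carries Pfkm, the median log2 change of all tested genes was -0.25 in Bmal1-/- and -0.28 in Clock-/- cells, and with these medians subtracted its values were 0.94 and -0.40. Pfkp, the platelet-type subunit, was at 81.7, 81.5 and 75.8 TPM in Bmal1-/-, 111, 94.7 and 124 TPM in Clock-/- and 67.0, 66.5 and 64.5 TPM in WT libraries. It rose by 0.72 in Clock-/- cells (adjusted p = 0.000237), and its change of 0.27 in Bmal1-/- cells did not pass (adjusted p = 0.0315). An overlapping gene, Pitrm1, at up to 225 TPM shares 4.87% of the 75-base stretches of Pfkp.

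As shares of the summed TPM of the 3 subunits, Pfkm made up 27.9% ± 0.82 in Bmal1-/-, 15.8% ± 1.26 in Clock-/- and 27.5% ± 2.24 in WT cells (SD, n = 3 each). Pfkp made up 14.4% ± 0.37, 28.9% ± 1.11 and 19.1% ± 0.75 in the same order. The sum itself was 528 to 581 TPM in Bmal1-/-, 342 to 422 TPM in Clock-/- and 339 to 353 TPM in WT libraries. Every Clock-/- library had a lower Pfkm share and a higher Pfkp share than every WT library at a total that overlapped WT, whereas the Pfkm shares of Bmal1-/- and WT libraries overlapped at totals that did not. With 3 libraries per genotype an exact permutation test cannot give a p below 0.10, and none is given for shares.

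Aldolase splits fructose 1,6-bisphosphate, and Aldoa made up 96.4% or more of the summed TPM of Aldoa and Aldoc in every library. Aldoa was at 822, 895 and 752 TPM in Bmal1-/-, 999.7, 1035 and 1052 TPM in Clock-/- and 643, 706 and 746 TPM in WT libraries, and rose by 0.56 in Clock-/- cells (adjusted p = 0.000452), while 0.24 in Bmal1-/- cells did not pass (adjusted p = 0.0297). It stood 0.32 lower in Bmal1-/- than in Clock-/- cells (adjusted p = 0.00578), a call lost in 11 of 20 alternative analyses. Aldoc, the brain-type aldolase, was at 30.2, 30.6 and 28.3 TPM in Bmal1-/-, 16.6, 16.6 and 19.3 TPM in Clock-/- and 14.9, 19.04 and 19.96 TPM in WT libraries. Aldoc rose by 0.71 in Bmal1-/- cells (adjusted p = 0.000596). The median over chromosome 11, which carries Aldoc, was 0.34 in Bmal1-/- cells, and after it was subtracted the change was 0.36 and did not pass (adjusted p = 0.0254).

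In the lower part of the pathway every enzyme but Eno2 rose in Bmal1-/- cells. Gapdh, which is often used as a loading control, was at 1410, 1374 and 1311 TPM in Bmal1-/-, 1039, 975 and 1009 TPM in Clock-/- and 833, 922 and 872 TPM in WT libraries. It rose by 0.64 in Bmal1-/- cells (SE 0.06, adjusted p = 2.09e-05) and differed by 0.20 in Clock-/- cells without passing (adjusted p = 0.0267). Pkm, pyruvate kinase, was the most abundant gene of the group, at 2517, 2447 and 2346 TPM in Bmal1-/-, 2012, 1919 and 2079 TPM in Clock-/- and 1432, 1448 and 1452 TPM in WT libraries. Pkm rose in both lines, by 0.75 in Bmal1-/- (adjusted p = 5.55e-06) and 0.47 in Clock-/- cells (adjusted p = 0.00021), with no overlap between genotypes. Its M1 and M2 splice forms are not separated at the level of the gene. Of the 75-base stretches of Pkm, 17.8% also occur in other genes, the highest of those listed at 7.00 TPM. The Bmal1-/- level of Pkm stood 0.28 above that of Clock-/- cells (adjusted p = 0.00239), a call lost in 2 of 20 alternatives.

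Eno1 and Eno2 encode the common and the neuronal enolase, and they changed in opposite directions. Eno1 was at 744, 766 and 682 TPM in Bmal1-/-, 456, 461 and 498 TPM in Clock-/- and 357, 383 and 407 TPM in WT libraries. It rose by 0.93 in Bmal1-/- cells (adjusted p = 4.89e-06) and by 0.30 in Clock-/- cells (adjusted p = 0.00838), the second call being lost in 15 of 20 alternatives. Eno2 was at 35.3, 33.8 and 32.7 TPM in Bmal1-/-, 38.1, 29.9 and 35.7 TPM in Clock-/- and 51.5, 46.2 and 45.2 TPM in WT libraries. Eno2 fell by 0.48 in Bmal1-/- (adjusted p = 0.00233) and by 0.46 in Clock-/- cells (adjusted p = 0.00466), and all 6 knockout libraries were below all 3 WT libraries. The calls of Eno2 were lost in 2 of 20 alternatives in Bmal1-/- and in 4 of 20 in Clock-/- cells, among them those without any 1 of the WT replicates. Its share of the summed TPM of Eno1 and Eno2 was 4.45% ± 0.19 in Bmal1-/-, 6.83% ± 0.82 in Clock-/- and 11.1% ± 1.33 in WT cells (SD, n = 3 each). Eno1 shares 23% of its 75-base stretches with other genes, among them Eno1b, listed at up to 181 TPM, so its level is uncertain.

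Pgam1, phosphoglycerate mutase, was at 315 to 343 TPM in Bmal1-/-, 225 to 264 TPM in Clock-/- and 192 to 216 TPM in WT cells, and rose by 0.68 in Bmal1-/- cells (adjusted p = 4.65e-05). Pgk1, phosphoglycerate kinase, had the smallest rise of the pathway, with 854, 1016 and 863 TPM in Bmal1-/-, 737, 777 and 856 TPM in Clock-/- and 669, 722 and 760 TPM in WT libraries. Its log2 fold change of 0.34 in Bmal1-/- cells (adjusted p = 0.00863) lost its call in 11 of 20 alternatives. Processed pseudogenes share 52.8% of the 75-base stretches of Pgk1, 34.9% of those of Pgam1 and, with 115 pseudogenes, 22.6% of those of Gapdh. How reads with several matches were counted is not given in the sources used here, so these levels are uncertain.

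The PFKFB enzymes make and break down fructose 2,6-bisphosphate, the strongest activator of phosphofructokinase, and their main transcript was lower in Bmal1-/- cells although the enzymes of the pathway were higher. Pfkfb2 was at 7.04, 7.90 and 8.50 TPM in Bmal1-/-, 31.0, 25.8 and 36.0 TPM in Clock-/- and 28.9, 24.1 and 22.0 TPM in WT libraries. It fell by 1.56 on the log2 scale in Bmal1-/- cells (SE 0.14, adjusted p = 1.33e-05) and stood 1.85 lower in Bmal1-/- than in Clock-/- cells (adjusted p = 3.89e-06), with a change of 0.29 in Clock-/- cells that did not pass (adjusted p = 0.131). Pfkfb2, one of the genes with an E-box shown above, lies on chromosome 1, with a median of -0.35 in Bmal1-/- cells, and after that was subtracted the value was -1.20 (adjusted p = 7.23e-05). Other genes share 16.2% of the 75-base stretches of Pfkfb2. The highest of them, Yod1, reached a higher TPM than Pfkfb2 had in any Bmal1-/- library. Reads of these stretches may be split, so the level and the share of Pfkfb2 are uncertain. The paralogs of Pfkfb2 were low in every library. Pfkfb3, the form that HIF and growth signals induce, was at 3.84 to 5.50 TPM in Bmal1-/-, 2.56 to 4.67 TPM in Clock-/- and 4.28 to 4.99 TPM in WT cells, and Pfkfb4 at 3.07 to 3.57, 1.87 to 2.49 and 2.36 to 3.22 TPM, with no call against WT. Pfkfb2 thereby made up 50.1% ± 4.1 of the summed TPM of the family in Bmal1-/-, 84.6% ± 1.02 in Clock-/- and 77.0% ± 2.25 in WT cells (SD, n = 3 each), and the sum in Bmal1-/- cells was 0.482 times that in WT cells.

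Pyruvate dehydrogenase kinases phosphorylate and shut the complex through which pyruvate enters mitochondrial oxidation, and the mRNAs of Pdk2 and Pdk3 stood in other proportions in Bmal1-/- cells. Pdk2 was at 12.8, 11.1 and 12.3 TPM in Bmal1-/-, 5.15, 4.47 and 5.24 TPM in Clock-/- and 4.26, 3.56 and 3.11 TPM in WT libraries. It rose by 1.497 in Bmal1-/- cells (SE 0.12, adjusted p = 8.03e-06), and the change of 0.36 in Clock-/- cells did not pass (adjusted p = 0.0443). With the chromosome 11 median subtracted the rise of Pdk2 was 1.15 (adjusted p = 5.23e-05). Pdk3 was at 11.5, 12.5 and 13.9 TPM in Bmal1-/-, 24.8, 25.4 and 25.5 TPM in Clock-/- and 21.5, 21.0 and 21.0 TPM in WT libraries, and fell by 0.70 in Bmal1-/- cells (adjusted p = 8.65e-05). Pdk1, a HIF target, did not pass in either line, at 21.6, 28.3 and 22.4 TPM in Bmal1-/-, 23.7, 24.4 and 32.9 TPM in Clock-/- and 20.2, 22.6 and 22.5 TPM in WT libraries. The 3 kinases summed to 45.9 to 52.0 TPM in Bmal1-/-, 53.7 to 63.7 TPM in Clock-/- and 45.9 to 47.2 TPM in WT cells, so the totals of Bmal1-/- and WT cells overlapped while Pdk2 took 24.9% ± 3.26 of it in Bmal1-/-, 8.68% ± 0.79 in Clock-/- and 7.84% ± 1.32 in WT cells (SD, n = 3 each).

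**Figure D3:**
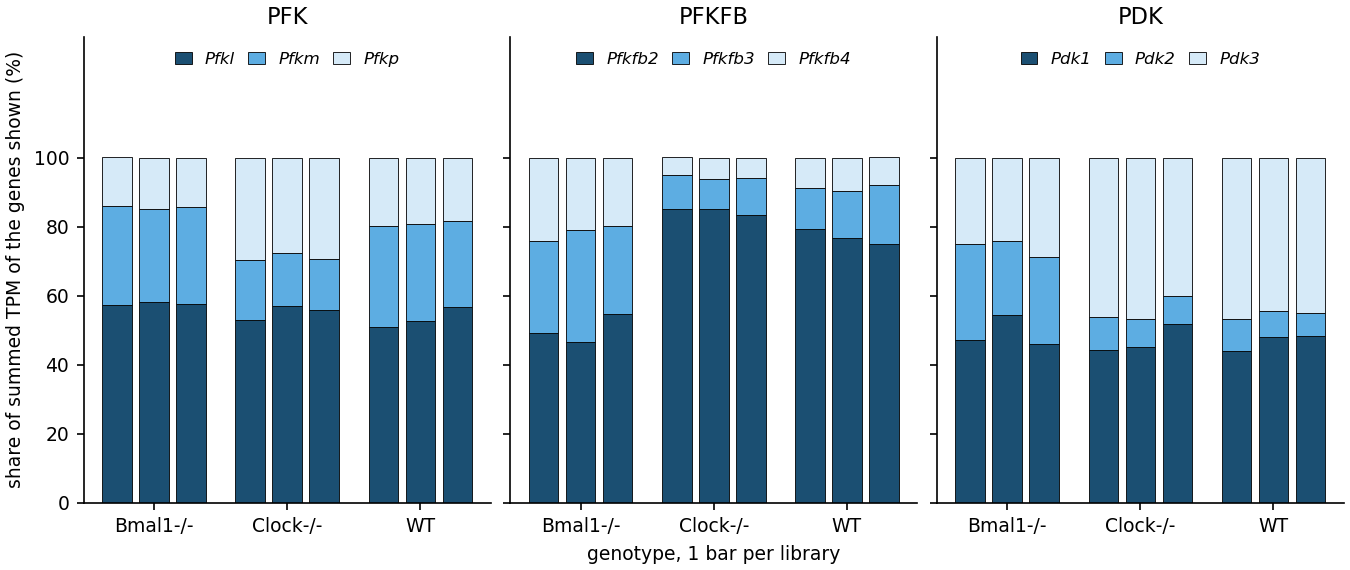
Share of the summed TPM taken by each gene of the phosphofructokinase (PFK), PFKFB and pyruvate dehydrogenase kinase (PDK) families, in percent, with 1 bar per Bmal1-/-, Clock-/- and WT library. The Pfkp segment is widest in the Clock-/- bars (28.9% on average), and the Pfkfb2 segment is narrowest and the Pdk2 segment widest in the Bmal1-/- bars.

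Ldhb encodes the heart-type subunit of lactate dehydrogenase, and it changed in Clock-/- cells. It was at 10.96, 11.08 and 13.7 TPM in Bmal1-/-, 38.7, 37.2 and 36.4 TPM in Clock-/- and 15.9, 11.96 and 12.6 TPM in WT libraries. Ldhb rose by 1.42 in Clock-/- cells (SE 0.12, adjusted p = 1.73e-05) and its change of -0.16 in Bmal1-/- cells did not pass (adjusted p = 0.295). A pseudogene shares 12.6% of the 75-base stretches of Ldhb. The main subunit gene Ldha, which is not one of the 32, was at 1041, 1313 and 1029 TPM in Bmal1-/-, 1034, 1123 and 1175 TPM in Clock-/- and 430, 519 and 621 TPM in WT libraries, rising by 1.11 (adjusted p = 9.89e-05) and 1.10 (adjusted p = 0.000205) in the 2 lines. Of the summed TPM of Ldha and Ldhb, Ldhb made up 1.07% ± 0.24 in Bmal1-/-, 3.27% ± 0.31 in Clock-/- and 2.60% ± 0.84 in WT cells (SD, n = 3 each). Every Bmal1-/- library was below every WT library in this share, and the Clock-/- and WT libraries overlapped. Slc16a3, the lactate exporter MCT4, was at 76.6, 101.3 and 72.1 TPM in Bmal1-/-, 96.4, 103 and 137 TPM in Clock-/- and 63.2, 78.3 and 81.4 TPM in WT libraries. Every Clock-/- library was above every WT library for Slc16a3, but the log2 fold change of 0.58 did not pass (adjusted p = 0.0197).

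Hif1a and its hydroxylases showed small changes. Hif1a mRNA was at 48.5, 52.3 and 54.9 TPM in Bmal1-/-, 73.0, 59.5 and 87.1 TPM in Clock-/- and 60.5, 60.8 and 53.3 TPM in WT libraries, and did not pass against WT in either line. It stood 0.47 lower in Bmal1-/- than in Clock-/- cells (adjusted p = 0.00869), a call lost in 13 of 20 alternatives. Arnt, the partner of HIF1α, was at 18.6 to 20.3 TPM in Bmal1-/-, 14.6 to 21.9 TPM in Clock-/- and 17.3 to 21.0 TPM in WT cells. Egln1, the main oxygen-sensing hydroxylase, was at 82.9 to 96.7, 73.9 to 90.7 and 79.5 to 85.6 TPM in Bmal1-/-, Clock-/- and WT cells, with overlapping groups. Egln3, a hydroxylase that HIF itself induces, was at 16.5, 21.7 and 17.7 TPM in Bmal1-/-, 20.3, 21.2 and 23.3 TPM in Clock-/- and 27.4, 31.0 and 31.1 TPM in WT libraries. Egln3 fell by 0.66 in Bmal1-/- (adjusted p = 0.000697) and by 0.45 in Clock-/- cells (adjusted p = 0.00982), and the Clock-/- call was lost in 16 of 20 alternatives. The degree of hydroxylation and the HIF1α protein were not measured here.

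The other hypoxia response genes did not move as 1 group: 2 rose in Bmal1-/- cells, 1 fell and 2 did not pass, and in Clock-/- cells 1 fell and 4 did not pass. Over all tested genes, 18.4% rose and 21% fell in Bmal1-/- cells, and 9.5% rose and 14.4% fell in Clock-/- cells. Ndrg1, a growth-arrest gene induced by hypoxia and by differentiation, was at 109.8, 109.6 and 109 TPM in Bmal1-/-, 10.6, 9.64 and 11.3 TPM in Clock-/- and 49.99, 49.6 and 48.4 TPM in WT libraries. The genotypes were far apart: Ndrg1 rose by 1.13 in Bmal1-/- cells (SE 0.07, adjusted p = 1.26e-06), fell by 2.13 in Clock-/- cells (adjusted p = 3.46e-08), and stood 3.26 higher in Bmal1-/- than in Clock-/- cells (adjusted p = 1.79e-09). It also lies on chromosome 15, and with the chromosome medians subtracted its values were 1.38 and -1.85. Ankrd37, a HIF target that encodes an ankyrin repeat protein, was at 18.6, 25.2 and 19.3 TPM in Bmal1-/-, 11.7, 7.74 and 10.2 TPM in Clock-/- and 7.53, 6.10 and 10.7 TPM in WT libraries, and rose by 1.30 in Bmal1-/- cells (SE 0.20, adjusted p = 0.000493). Of the 75-base stretches of Ankrd37, 13.25% also occur in Lrp2bp, at up to 1.44 TPM. P4ha1, the catalytic subunit of collagen prolyl 4-hydroxylase, was at 48.0, 56.0 and 48.1 TPM in Bmal1-/-, 61.0, 54.8 and 66.0 TPM in Clock-/- and 70.1, 66.0 and 68.8 TPM in WT libraries, and fell by 0.43 in Bmal1-/- cells (adjusted p = 0.00249), a call lost in 3 of 20 alternatives, those without WT replicate 1, Bmal1-/- replicate 1 or Bmal1-/- replicate 3.

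Bnip3, a mitophagy receptor, was at 208, 324 and 252 TPM in Bmal1-/-, 299, 338 and 387 TPM in Clock-/- and 221, 237 and 243 TPM in WT libraries. Vegfa, the angiogenic growth factor, was at 157, 179 and 172 TPM in Bmal1-/-, 198, 171 and 228 TPM in Clock-/- and 156, 153 and 136 TPM in WT libraries. For both genes every Clock-/- library was above every WT library. The log2 fold changes in Clock-/- cells, 0.54 for Bnip3 (adjusted p = 0.017) and 0.41 for Vegfa (adjusted p = 0.0117), missed the threshold of 0.01. Of the 75-base stretches of Bnip3, 34.4% also occur in other genes, so its level is uncertain.

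**Figure D4:**
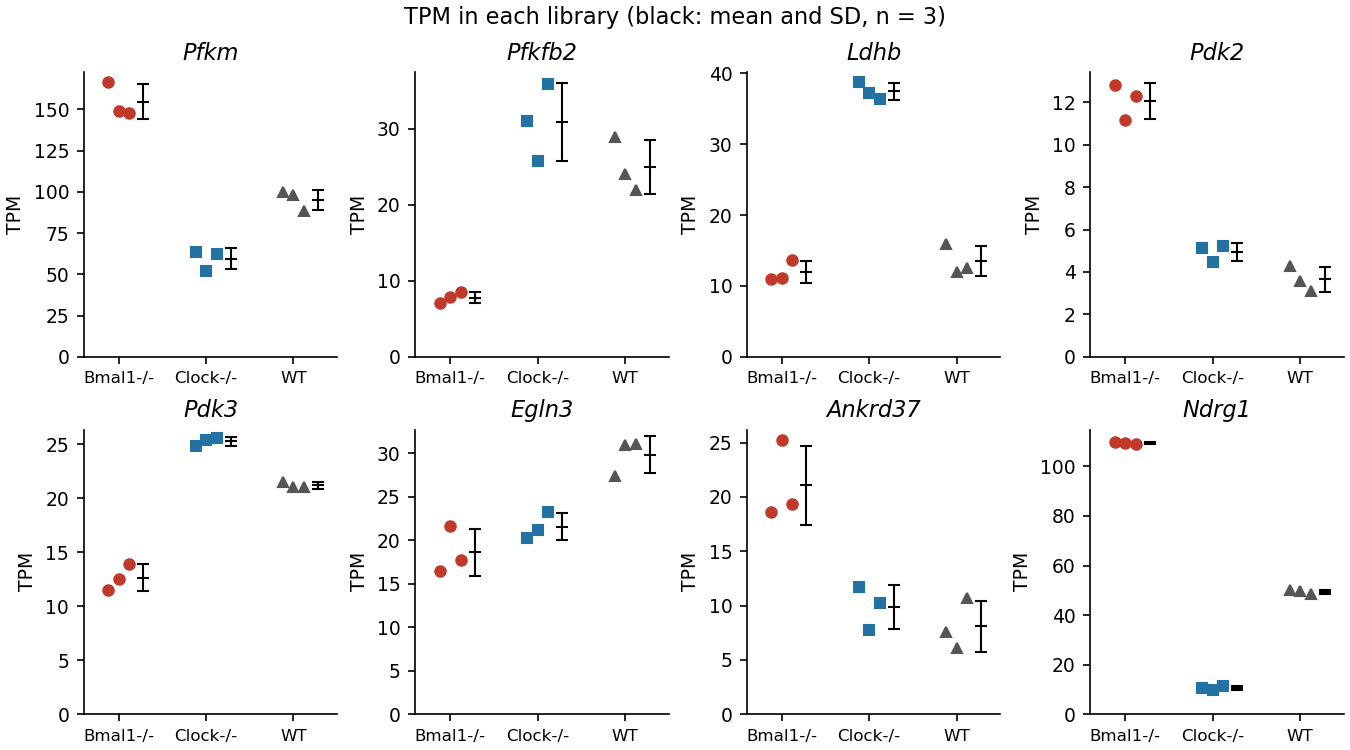
TPM of 8 genes in each Bmal1-/- (circles), Clock-/- (squares) and WT (triangles) library, with the mean and SD of 3 in black; every axis starts at 0. Ndrg1 and Pfkm are highest in Bmal1-/- and lowest in Clock-/- cells, Ldhb is high in Clock-/- cells, and Pfkfb2, Pdk2, Pdk3 and Ankrd37 set Bmal1-/- cells apart from the other genotypes.

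Further genes of the pathways were drawn from 2 lists that do not overlap the 32 and were also chosen with earlier results of these data known. Of 29 other glycolysis genes, 21 were tested, of which 3 rose and 7 fell in Bmal1-/- cells (14.3% and 33.3%, against 18.4% and 21% of all tested genes), while in Clock-/- cells 7 rose and 5 fell (33.3% and 23.8%, against 9.5% and 14.4%). Slc2a2, Pklr and Gpd1 all fell in Clock-/- cells. Slc2a2, the glucose transporter GLUT2 of mouse β cells, was at 34.2, 50.7 and 43.3 TPM in Bmal1-/-, 5.80, 6.35 and 8.25 TPM in Clock-/- and 111, 113 and 102 TPM in WT libraries, and fell by 1.34 in Bmal1-/- (adjusted p = 5.5e-05) and by 3.83 in Clock-/- cells (adjusted p = 1e-07). Pklr (the liver-type pyruvate kinase) fell by 1.53 and Gpd1 (glycerol 3-phosphate dehydrogenase) by 1.26 in Clock-/- cells. Fbp1, the gluconeogenic fructose 1,6-bisphosphatase, fell to 0.911, 1.48 and 0.870 TPM in Bmal1-/- cells, against 12.03, 11.93 and 12.97 TPM in WT cells, with 8.04, 8.30 and 7.95 TPM in Clock-/- cells.

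Of 34 other hypoxia genes, 25 were tested, of which 13 rose and 4 fell in Bmal1-/- cells (52% and 16%, against 18.4% and 21% of all tested genes), while in Clock-/- cells 4 rose and 2 fell (16% and 8%, against 9.5% and 14.4%). Their median log2 fold change was 0.53 in Bmal1-/- and -0.04 in Clock-/- cells, against -0.04 and -0.02 over all tested genes. Narf was at 37.6, 42.5 and 40.8 TPM in Bmal1-/-, 12.7, 9.41 and 15.1 TPM in Clock-/- and 10.01, 9.62 and 9.87 TPM in WT libraries. Mxi1, a MYC antagonist, rose by 1.83 in Bmal1-/- (adjusted p = 1.5e-06) and by 0.48 in Clock-/- cells (adjusted p = 0.00977), and Kdm4b, a histone demethylase, by 1.21 in Bmal1-/- cells (adjusted p = 1.55e-05). Higd1a, a mitochondrial protein, rose by 0.59 in Bmal1-/- (adjusted p = 0.00184) and 1.33 in Clock-/- cells (adjusted p = 1.93e-05), and Ak4, a mitochondrial adenylate kinase, by 1.23 in Clock-/- cells (adjusted p = 0.000293).

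THRAP3 peaks were sought within 1 kb of the GENCODE start of each gene, as a readout that does not use RNA levels. In the 2 Bmal1-/- lists 8 and 12 of the 32 genes had a peak, against 30.2% and 25.0% of all tested genes, and in the 2 WT lists 0 and 6 had one, against 1.16% and 11.5%. The lists held 12949 and 12226 peaks in Bmal1-/- and 808 and 6128 in WT cells, so the 2 WT lists differ widely in size, and no test was made. Peaks were called in each immunoprecipitation against the input of its genotype. Of the 32 genes, 16 had a peak in at least 1 list. The share of all tested genes with a peak in at least 1 list, or in a given combination of lists, was not counted. The combinations that follow are therefore not read as a trait of the 32 genes. Ndrg1 and Aldoc had a peak in both Bmal1-/- lists and in 1 WT list. The peak at Ndrg1 was centered at -160 and -164 bases from the start in Bmal1-/- and at -176 in WT cells, with 19.6 and 20.1 normalized tags in Bmal1-/-, against 10.1 in WT cells. Pdk1, Pdk2, Pdk3, Pfkl and Bnip3 had a peak in both Bmal1-/- lists and in neither WT list. The peaks at Pdk2 and Bnip3 overlapped the windows shown above, with 9.42 and 7.35 normalized tags at Pdk2 and 9.42 and 10.7 at Bnip3. The windows shown for Pfkfb2, Hif1a and Ankrd37 belong to RefSeq starts that lie 13432, 6492 and 5857 bases from the GENCODE start, outside the stretch searched. Looked at apart, the window of Pfkfb2 overlapped a peak of Bmal1-/- replicate 1 and that of Hif1a a peak of Bmal1-/- replicate 2, while those of Ankrd37 and Pfkm overlapped none. Eno1, P4ha1 and Pfkm had a peak in 1 WT list and in neither Bmal1-/- list.

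**Figure D5:**
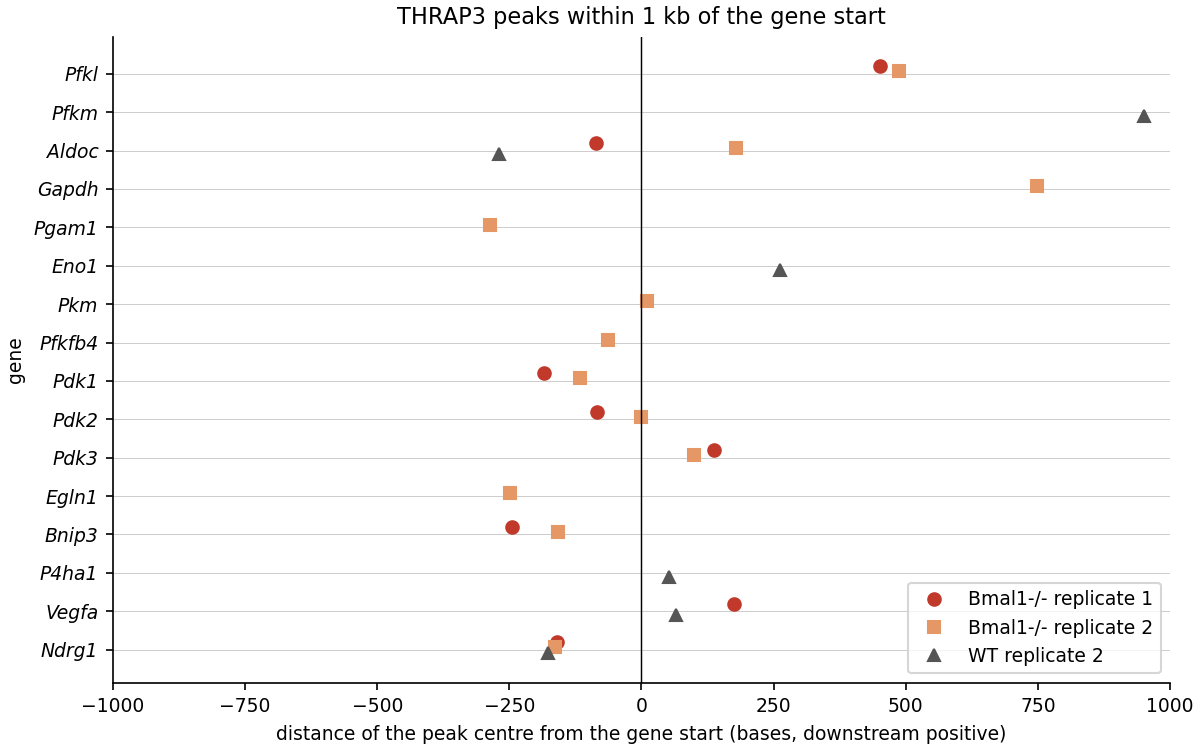
Distance in bases of each THRAP3 peak centre from the gene start, downstream positive, for the 16 genes with a peak within 1 kb in Bmal1-/- replicate 1 (circles), Bmal1-/- replicate 2 (squares) or WT replicate 2 (triangles); WT replicate 1 had none. Most centres lie within 300 bases of the start, and the 3 peaks at Ndrg1 lie close together upstream of the start.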

How the data were processed

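Poly(A) RNA was sequenced as paired 75-base reads from strand-marking libraries. The authors aligned reads to mm10 with STAR 2.5.0, counted exons of GENCODE vM10 genes with featureCounts 1.5.3, and deposited TPM, scaled to the same total in each library. The members and gene lists were chosen with earlier results of these data known. Gene IDs were matched to GENCODE vM21 (20499 of 20599 matched), whose positions are on the same build. Because TPM times exon length came out as whole steps in 88.5% to 89.8% of values under 20 reads (tolerance 0.02 reads), reads per library and gene were estimated from those steps; these estimates give depth only and one alternative.

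Values were tested as log2(TPM + 1) in 1 linear model of all 9 libraries with moderated variances and a mean-variance trend (limma 3.58.1, R 4.3.3) on 6 residual degrees of freedom, after keeping genes with at least 1 TPM in at least 3 libraries. Fold changes on this scale understate the change of low genes. The procedure was tested on simulated data. Shares, sums and promoter matches are descriptions. All 32 members were named. From the other lists, genes past an adjusted p of 0.01 and an absolute log2 fold change of 1 in a knockout, with a mean of at least 5 TPM in the higher group, were named, at most 5 per list by size of change, plus Ldha and Arnt; 1 gene that this rule names is not reported here. The 75-base stretches of member exons were searched in the exons of all annotated genes.

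For ChIP-seq, the authors aligned with Bowtie2 2.2.4 and called peaks with HOMER; the deposited lists give a normalized tag count per peak (a signal), a findPeaks score and a fold over input. Peaks overlapping 1 kb either side of the annotated start by at least 1 base were taken, and scores were used only to rank peaks. The deposited comparison tables of the authors, which hold means, fold changes and p-values from DESeq2 1.22.1, were not used. The eCLIP samples were not analysed here. Alternatives comprised other pseudocounts and filters, rescaling, quantile normalization, other model settings, subtraction of chromosome medians and leaving out each library.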

Additional observations from a re-analysis of the deposited data

Results flagged for a closer look

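The effects of the 2 knockouts differed, by the direct limma comparison of Bmal1-/- with Clock-/- cells over all tested genes, for 18 of the 30 tested genes. Of all tested genes, 22.8% were higher and 21.8% lower in Bmal1-/- than in Clock-/- cells. The values that follow are log2 fold changes of Bmal1-/- over Clock-/- cells. Of the enzymes, Gpi1 (0.60), Pfkl (0.61), Pfkm (1.37), Aldoc (0.73), Tpi1 (0.77), Gapdh (0.44), Pgam1 (0.43), Eno1 (0.63) and Pkm (0.28) were higher in Bmal1-/- cells. Pfkp (-0.45) and Aldoa (-0.32) were lower. Of the genes around the pathway, Pdk2 (1.14), Ankrd37 (1.02) and Ndrg1 (3.26) were higher, and Pfkfb2 (-1.85), Ldhb (-1.58), Pdk3 (-0.95) and Hif1a (-0.47) were lower. Pfkm and Ndrg1 were the members that passed against WT in both lines with opposite signs. All 3 libraries of each genotype stood apart from those of the others for both genes.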

How the results depend on the processing

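Of 1794 values of single genes under 20 alternatives, 1650 kept their direction and side of the threshold, 80 lost a call, 37 gained one, none reversed a call, and 27 without a call changed sign. Of the calls, 14 held under every alternative in Bmal1-/- against WT, 6 in Clock-/- against WT and 14 between the knockouts. Leaving out 1 library gave 12 to 14 genes that rose and 3 to 5 that fell in Bmal1-/- cells (3 without WT replicate 1 or Bmal1-/- replicate 3), 4 to 7 and 2 to 4 in Clock-/- cells (2 that fell without any 1 of the WT replicates), and 12 to 13 and 3 to 6 between the knockouts (3 without Bmal1-/- replicate 3). With no filter on low values 7 genes fell in Bmal1-/- cells, Hk2 and Adm among them. With only the 6 libraries compared, 2 genes fell in Clock-/- cells. Counts over all genes past a log2 fold change of 1 were 1773 in Bmal1-/-, 1113 in Clock-/- and 2182 between the knockouts. They were 1687 to 1809, 1064 to 1220 and 2042 to 2301 with 1 library left out, and 1060, 566 and 1325 at a mean of at least 5 TPM, which tests fewer genes. On estimated reads (limma-voom, chosen after seeing the data) 10 genes rose in Clock-/- cells, in place of 5. The counts over all genes past a log2 fold change of 1 were also higher in this setting. They were 2412 in Bmal1-/-, 1446 in Clock-/- and 2853 between the knockouts. The cause was not tested. Among peaks scoring at or above the median of their list, 3 and 6 genes had one in the Bmal1-/- lists and 0 and 3 in the WT lists. The share of all tested genes with such a peak is not reported here. These counts are therefore not read as a trait of the genes described. Same-numbered libraries did not deviate together (correlations -0.208 to 0.0742, against -0.163 to 0.212 for other numbers). With 3 libraries per genotype this gave no sign of pairing but cannot exclude it. With the replicate block 13 genes rose and 5 fell in Bmal1-/-, 4 and 3 in Clock-/-, and 12 and 4 between the knockouts. The calls of Eno1 and Egln3 in Clock-/- cells and of Aldoa and Hif1a between the knockouts were then lost. Depth limits Hk2 and Adm, at 14 reads or fewer per library.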

Other observations

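Genes of the amino acid response, which ATF4 drives, differed in Bmal1-/- cells: 5 of 6 fell, against 21% of all tested genes. Atf4 was at 320, 302 and 318 TPM in Bmal1-/-, 829, 835 and 775 TPM in Clock-/- and 893, 915 and 876 TPM in WT libraries, a log2 fold change of -1.51 in Bmal1-/- cells (adjusted p = 5.11e-08, limma). Chac1, which breaks down glutathione, was at 21.6, 19.2 and 19.5 TPM in Bmal1-/-, 189, 164 and 185 TPM in Clock-/- and 90.9, 86.4 and 90.1 TPM in WT libraries. Trib3, a pseudokinase that ATF4 induces, fell by 1.73 in Bmal1-/- cells, and Asns, asparagine synthetase, by 0.98. In Clock-/- cells 2 of the 6 rose, Chac1 by 1.00 and Trib3 by 0.46, and 1 fell, against 9.5% and 14.4% of all tested genes. These genes were named after their values were seen.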
